A study of Mus musculus with 267 samples.

Results

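The C-type lectin receptor genes Clec7a (Dectin-1), Clec4n (Dectin-2), Clec4d (also called MCL) and Clec4e (Mincle) are described here in mouse bone marrow-derived macrophages (BMDMs) before and after interleukin-4 (IL-4). These 4 genes, of 55341 gene symbols in GENCODE vM21, were followed through every table of ChIP-seq tags and every list of transcription factor peaks: a region or peak belonged to the gene whose start was nearest, if its centre lay within 50 kb (50000 bp) of that start. This gave 150 regions of 423610 over 9 tables, and 963 peaks of 1958714 over 54 lists. All positions are on GRCm38 (mm10). Clec7a (ENSMUSG00000079293.11) lies at chr6:129461591-129472779 on the minus strand and carries the annotation polymorphic pseudogene in that release. Clec4n (ENSMUSG00000023349.14, chr6:123229843-123247021, plus strand), Clec4d (ENSMUSG00000030144.4, chr6:123262111-123275265, plus strand) and Clec4e (ENSMUSG00000030142.10, chr6:123281789-123289870, minus strand) lie side by side in a separate cluster of the same chromosome, so a region between neighbours could belong to either gene and was counted once, with the nearer start.

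ChIP-seq measured histone H3 lysine 27 acetylation (H3K27ac, a mark of active promoters and enhancers), RNA polymerase II (Pol II), H3K4me2, H3K4me3 and the transcription factors EGR2, PPARγ, STAT6, C/EBPβ and PU.1. BMDMs came from classical inbred mice, namely BALB/cJ (BALB), C57BL/6J (C57, the strain of the reference genome) and NOD/ShiLtJ (NOD), and from the wild-derived strains SPRET/EiJ (SPRET) and PWK/PhJ (PWK), left untreated (basal) or given 20 ng/mL IL-4 for 24 hours, and C57 BMDMs also for 1 or 6 hours. A further pair of genotypes, Egr2 fl/fl and LyzM-Cre Egr2 fl/fl, was studied at basal state and after 24 hours of IL-4; both carry the floxed allele, and the LyzM promoter drives Cre in myeloid cells, so that Egr2 is deleted there by the design and not in other cells. Of 138 groups of libraries, 114 had 2, 17 had 1, 6 had 3 and 1 had 4, and the study's methods call the ChIP libraries biological replicates, while the labels do not say whether these were separate animals; p-values measure the spread between these libraries. All cells were grown with M-CSF from the bone marrow of female mice aged 8 to 12 weeks, as the methods give for the whole study. Transcript levels and protein levels of the 4 genes were not analysed here.

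Dectin-1 recognises β-glucans of fungal cell walls and signals through an ITAM-like motif of its own tail, whereas Dectin-2, which binds α-mannans, and Mincle, which binds mycobacterial trehalose dimycolate and a danger signal of dying cells, pair with the Fc receptor γ chain; the Clec4d product forms complexes with Mincle or Dectin-2. All of these routes reach the kinase Syk and the adaptor CARD9, which turn on NF-κB target genes. IL-4 acts through STAT6 and drives macrophages toward an alternatively activated state, in which Dectin-1 is a commonly used surface marker; Mincle is best known as a gene induced by microbial products.

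The 250 bases upstream of each start are shown because Pol II at the starts separated Clec7a from the other 3 genes. Capitals mark matches, on either strand, to GTGGGNG (EGR), TTC and GAA with 4 bases between them (STAT6), AGGTCA (PPAR half-site), GAGGAA (PU.1, an ETS-like core) and TTGCNNAA (C/EBP). Each promoter is written 5′ to 3′ on its gene's own strand.
Clec7a promoter (chr6:129472780-129473029, minus strand): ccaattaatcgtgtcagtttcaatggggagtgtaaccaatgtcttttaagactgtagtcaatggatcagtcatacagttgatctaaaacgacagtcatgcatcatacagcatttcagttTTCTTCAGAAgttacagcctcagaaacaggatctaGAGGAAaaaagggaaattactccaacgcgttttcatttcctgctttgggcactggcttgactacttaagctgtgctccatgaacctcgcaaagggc
Clec4n promoter (chr6:123229593-123229842, plus strand): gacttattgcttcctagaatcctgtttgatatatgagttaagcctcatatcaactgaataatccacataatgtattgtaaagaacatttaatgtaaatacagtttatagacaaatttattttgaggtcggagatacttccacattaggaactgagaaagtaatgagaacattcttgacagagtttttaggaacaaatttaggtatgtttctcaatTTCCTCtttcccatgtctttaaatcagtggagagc
Clec4d promoter (chr6:123261861-123262110, plus strand): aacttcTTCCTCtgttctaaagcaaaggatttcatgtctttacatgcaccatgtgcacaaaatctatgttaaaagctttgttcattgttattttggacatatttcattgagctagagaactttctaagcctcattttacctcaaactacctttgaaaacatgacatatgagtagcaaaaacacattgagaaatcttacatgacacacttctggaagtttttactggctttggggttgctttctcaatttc
Clec4e promoter (chr6:123289871-123290120, minus strand): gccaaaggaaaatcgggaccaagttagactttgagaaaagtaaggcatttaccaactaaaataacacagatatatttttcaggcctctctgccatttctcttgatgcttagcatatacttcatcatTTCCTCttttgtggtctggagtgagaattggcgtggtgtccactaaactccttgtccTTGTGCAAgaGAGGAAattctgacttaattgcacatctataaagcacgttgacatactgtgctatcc
The Clec7a window held 1 STAT6-type match (TTCTTCAGAA), which the other 3 windows did not, and each of the 4 windows held the PU.1 letters. Among 21938 promoter windows of the same length, 5.42% held the STAT6 letters and 22.9% the PU.1 letters, with 29.3% for EGR, 12.8% for the PPAR half-site and 9.23% for C/EBP. A match is a description of letters in the C57 reference and not a bound site; letters that differ in the other strains are not shown.

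A second set shows 3 sites far from the Clec7a start: the +38 kb site because it held the EGR2 peak with most tags, and the −41 kb and −42 kb sites because H3K27ac there differed most between basal and IL-4-treated C57 BMDMs. Distances are signed along the gene, with minus upstream of the start. The plus strand of the 300 bases at each peak centre is given, with capitals as above.
Clec7a +38 kb (chr6:129434247-129434546, plus strand): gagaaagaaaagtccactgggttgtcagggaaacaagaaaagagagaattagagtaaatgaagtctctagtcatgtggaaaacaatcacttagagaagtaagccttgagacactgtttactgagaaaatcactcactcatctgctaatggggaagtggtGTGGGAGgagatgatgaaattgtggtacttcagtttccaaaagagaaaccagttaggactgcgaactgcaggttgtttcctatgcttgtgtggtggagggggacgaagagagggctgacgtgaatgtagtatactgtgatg
Clec7a -41 kb (chr6:129514120-129514419, plus strand): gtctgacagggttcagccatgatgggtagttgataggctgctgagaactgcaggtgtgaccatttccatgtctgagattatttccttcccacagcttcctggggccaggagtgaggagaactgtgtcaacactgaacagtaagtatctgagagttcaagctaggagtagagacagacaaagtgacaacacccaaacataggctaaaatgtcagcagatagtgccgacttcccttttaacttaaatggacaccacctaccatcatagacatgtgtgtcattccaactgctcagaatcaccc
Clec7a -42 kb (chr6:129515137-129515436, plus strand): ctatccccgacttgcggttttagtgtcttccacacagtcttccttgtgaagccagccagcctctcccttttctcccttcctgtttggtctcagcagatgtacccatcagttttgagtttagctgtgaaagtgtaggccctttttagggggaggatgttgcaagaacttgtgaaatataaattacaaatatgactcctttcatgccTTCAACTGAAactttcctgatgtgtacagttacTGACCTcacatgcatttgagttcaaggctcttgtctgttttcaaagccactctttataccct
The +38 kb site lies in an intron of the neighbouring lectin gene Clec1a and held 1 EGR match. The −42 kb site lies in an intron of Tmem52b, whose start is nearer to it than that of Clec7a, and held 1 STAT6 match (TTCAACTGAA) and 1 PPAR half-site; the −41 kb window, also in Tmem52b, held none of the searched letters. Of 30662 EGR2 sites with windows of this length, 55.1% held the EGR letters, 9.21% the STAT6 letters, 16.9% the PPAR half-site, 42.5% the PU.1 letters and 16.9% the C/EBP letters. Which gene a distal site acts on was not measured.

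Levels are normalized tags, that is reads scaled to 10000000 tags per library, counted in 1000 bp around each region of open chromatin of the strain. Totals ran from 4691644 to 29050468 tags over 155 libraries (median 12936233), so 1 normalized tag stood for 0.469 to 2.91 reads. Changes are log2 fold changes of (tags + 1), tested with limma across all regions of a table with Benjamini-Hochberg adjustment, and "rose" or "fell" is used where the adjusted p was below 0.05. A second count, called the fold rule, takes regions whose group means differed at least 2.5-fold with at least 16 (H3K27ac) or 8 (Pol II) tags in the higher group. It is a description with no test. Statements that groups of libraries did or did not overlap are descriptions too. With so few libraries a group, groups can often lie apart without any change. The share of all regions without overlap was not counted. The macrophage identity of the C57 cells was checked at 7 marker genes, whose start regions all held H3K27ac, from 190 tags at Mertk to 1294 at Spi1 in basal BMDMs; T-cell markers had no region, Ms4a1 (B cell) held 88.8 tags, the neutrophil genes S100a8 and Camp held 37.4 and 16.3 tags, and Flt3, Zbtb46 and Kit were near 0.

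After 24 hours of IL-4, Clec7a regions were higher and regions of the Clec4 cluster lower where they passed the fold rule. Every one of the regions past the fold rule in the higher direction was assigned to Clec7a, and every one in the lower direction to Clec4d, Clec4e or Clec4n. Assignment was among these 4 genes only. In C57 the regions higher in both marks, at +45, −25, −41 and −42 kb, lay nearer the start of Clec9a, Olr1 or Tmem52b than that of Clec7a. H3K27ac at the Clec7a start did not pass the rule in any strain. Summed over the 5 strains, 16 regions were higher and 13 lower in H3K27ac, and 28 were higher and 18 lower in Pol II; with a pseudocount of 5 the 28 became 18, and under median-ratio scaling the 13 became 3. In C57 BMDMs, 5 of 24 regions were higher in H3K27ac, beside 3.46% of all regions, and 7 were lower, beside 7.55%; in Pol II, 6 were higher beside 1.57% and 9 lower beside 1.66%. In BALB BMDMs, 2 of 18 regions were higher and 3 lower in H3K27ac, beside 2.84% and 5.13%, and 6 were higher and 0 lower in Pol II, beside 5.91% and 0.929%. In NOD BMDMs, 3 of 23 regions were higher and 3 lower in H3K27ac (3.24% and 5.14% of all regions), and 5 were higher and 7 lower in Pol II (2.35% and 1.25%). In PWK BMDMs, 5 of 18 were higher and 0 lower in H3K27ac (3.1% and 3.01%), and 8 were higher and 0 lower in Pol II (2.66% and 0.932%). In SPRET BMDMs, 1 of 16 was higher and 0 lower in H3K27ac (2.64% and 0.939%), and 3 were higher and 2 lower in Pol II (1.54% and 0.805%). The regions of 1 gene are not independent of each other.

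The regions themselves differed between the 2 loci. The tables were built from open-chromatin peaks of basal and treated BMDMs, and over the 5 strains 21 Clec7a regions came from the 24-hour lists alone, 10 from the basal lists alone and 24 from both. For Clec4n, Clec4d and Clec4e together, 1 region came from the 24-hour lists alone, 16 from the basal lists alone and 27 from both. This is a count of regions, with no test.

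**Figure D1:**
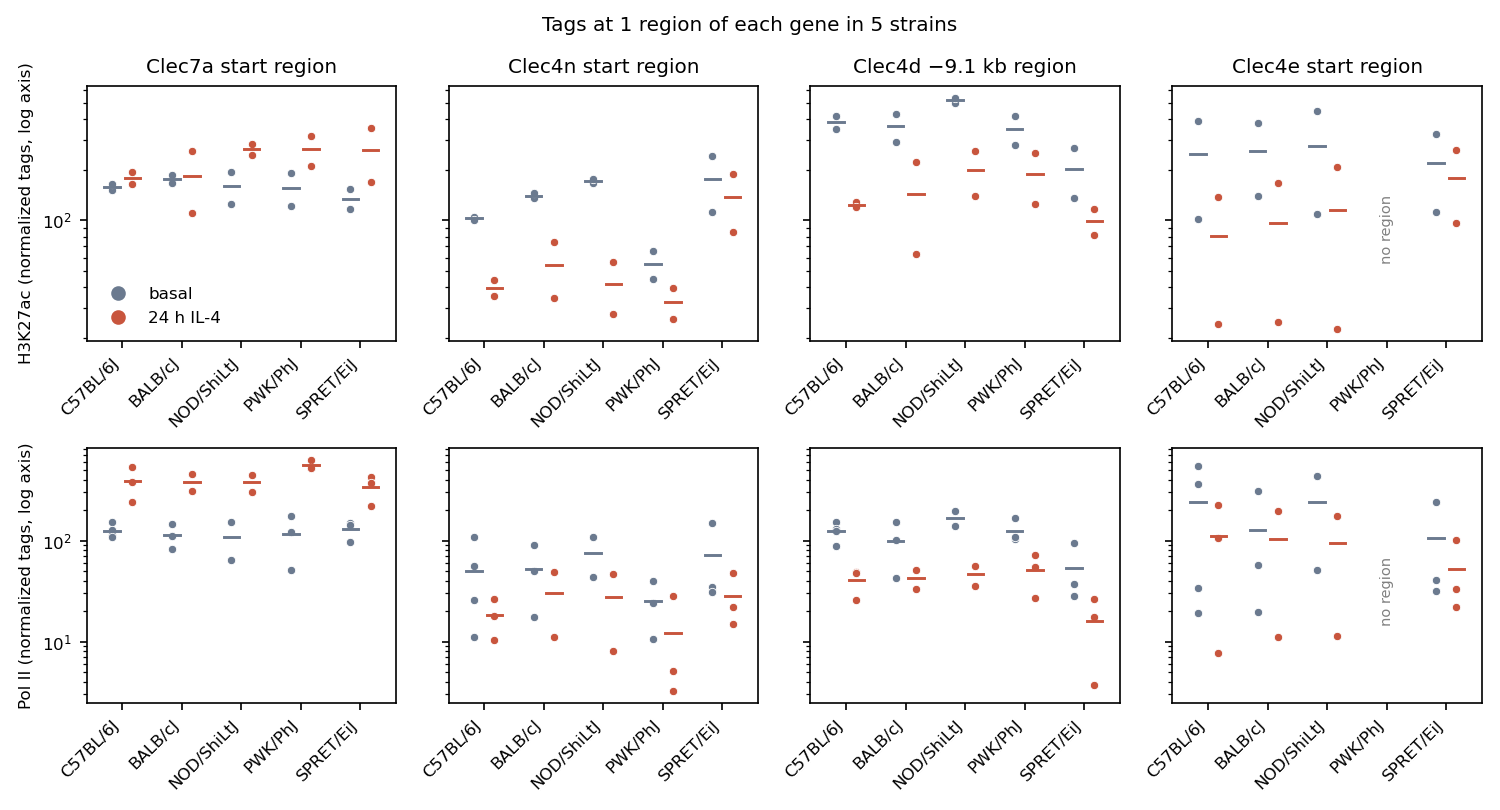
Normalized tags (log axis) of H3K27ac (top row) and Pol II (bottom row) at the Clec7a start, the Clec4n start, the Clec4d −9.1 kb region and the Clec4e start in 5 strains. Points are libraries and bars are group means, blue-grey for basal and red for 24 hours of IL-4; Pol II at the Clec7a start is higher in every treated library than in any basal library of its strain, and no region was listed near Clec4e in PWK.

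At the start of Clec7a, Pol II was higher after IL-4 in all 5 strains. In C57 BMDMs it was 153, 128, 114 and 107 tags in 4 basal libraries and 532, 384 and 244 in 3 treated ones. In PWK it was 50.8, 122 and 177 against 635, 529 and 519. The groups did not overlap in either strain, and PWK held the highest treated library of any strain. In BALB the basal libraries held 111, 145 and 82.05 tags and the treated ones 313 and 455. In NOD the values were 63.6 and 153 and then 451 and 306. In SPRET they were 95.8, 151 and 143 and then 425, 372 and 221. Again no treated library was as low as a basal one, while treated libraries of the same strain differed by over 100 tags.

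By limma, Pol II at the Clec7a start rose in PWK (log2 2.43 ± 0.36 SE, adjusted p = 0.00346) and SPRET (1.35 ± 0.28, adjusted p = 0.0479). It was 1.56 ± 0.33 in C57 (adjusted p = 0.0598), 1.77 ± 0.66 in BALB (0.291) and 1.90 ± 0.43 in NOD (0.337), none of which passed. In C57, PWK and SPRET Pol II libraries of the same replicate number were taken as paired, from a check of the data and not from the labels. With the number as a block the C57 value was 1.49 ± 0.26 (limma, adjusted p = 0.0213). In these 3 strains, 9 of 9 treated libraries exceeded their basal partner, by 1.55 to 12.5 times. Without replicate 2 of the treated PWK libraries the PWK call was lost (adjusted p = 0.0823), and the SPRET call was kept only without treated replicate 3, the lowest treated library, and lost in the other 5 fits that left out 1 library (adjusted p up to 0.231).

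H3K27ac at the Clec7a start was high already in basal BMDMs, at 116 to 194 tags per library over the 5 strains. It was 153 and 165 tags in basal and 194 and 165 in treated C57 libraries. It was 185 and 166 against 259 and 111 in BALB. Both strains overlapped. In NOD it was 125 and 194 against 284 and 246, in PWK 122 and 191 against 319 and 212, and in SPRET 116 and 153 against 353 and 169. In these 3 strains the treated libraries lay above the basal ones. The log2 differences were 0.17, −0.05, 0.76, 0.77 and 0.87 in C57, BALB, NOD, PWK and SPRET, the BALB sign turning under median-ratio scaling (0.28), and none passed limma (adjusted p 0.376 to 0.988).

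H3K4me3, a mark of active starts, did not overlap between conditions at the Clec7a start in any strain, though limma called none of these differences. It was 56.8 and 64.8 tags in basal and 109 and 116 in treated C57 libraries. It was 63.05 and 102 against 144 and 119 in BALB and 19.96 and 71.6 against 94.4 and 142 in NOD. It was 35.1 and 65.3 against 85.4 and 104 in PWK and 30.6 and 46.7 against 127 and 66.9 in SPRET. Treated libraries were the higher in each. H3K4me2 at the start was 73.5 and 64.04 tags in basal and 47.2 and 21.2 in treated C57 libraries, and 67.5 and 86.2 against 62.1 and 20.9 in BALB. It was 49.99 and 74.9 against 51.8 and 43.8 in NOD, 86.2 and 83.7 against 94.4 and 41.7 in PWK and 64.7 and 41.1 against 44.3 and 36.7 in SPRET. Treated libraries were below basal ones in C57 and BALB and overlapped in NOD, PWK and SPRET, and the mark was lower over the whole table: the median log2 difference of all regions was −0.66, −0.56, −0.31, −0.18 and −0.48 in C57, BALB, NOD, PWK and SPRET. In C57 27.2% and 18.9% of treated tags lay in the listed regions, against 37.1% and 37.2% of basal ones, and the part of this in the values at Clec7a was not tested. Over all regions of the 4 genes, limma called 0 in H3K4me2 and 0 in H3K4me3 in any strain. In H3K4me2 the counts at an unadjusted p below 0.05 were 11, 0, 4, 3 and 4 in C57, BALB, NOD, PWK and SPRET, beside 34.05%, 1.87%, 8.37%, 4.79% and 32.4% of all regions, edgeR called 0 in each, and limma called 0.236%, 0.0111%, 0.189%, 0.314% and 0% of all regions. In H3K4me3 the unadjusted counts were 9, 3, 6, 1 and 4, beside 19.5%, 6.31%, 5.41%, 4.75% and 6.17% of all regions. Limma called 0%, 0%, 0.0203%, 0.0349% and 0% of all regions. By edgeR 3, 1, 2, 0 and 1 regions of the 4 genes were called. The share of all regions that edgeR called is not given, and limma shares do not stand in for it, so nothing is read from the edgeR counts.

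Pol II was also higher along the Clec7a gene. At its end, in PWK, it was 38.8, 82.5 and 111 tags in basal and 572, 392 and 325 in treated libraries. It rose there by log2 2.54 ± 0.35 (limma, adjusted p = 0.00205). In NOD the gene end held 48.01 and 95.2 and then 444 and 165 tags, and in SPRET 80.3, 222 and 145 and then 367, 522 and 278. All 3 strains were without overlap, and H3K27ac at the gene end was low in them, at 6.6 to 28 tags. Each of these regions was listed from the 24-hour open chromatin of its strain alone, the condition in which Pol II was higher. The SPRET region, at +11763 bp, is a different window from those of NOD (+10638 bp) and PWK (+10661 bp) and does not overlap them.

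**Figure D2:**
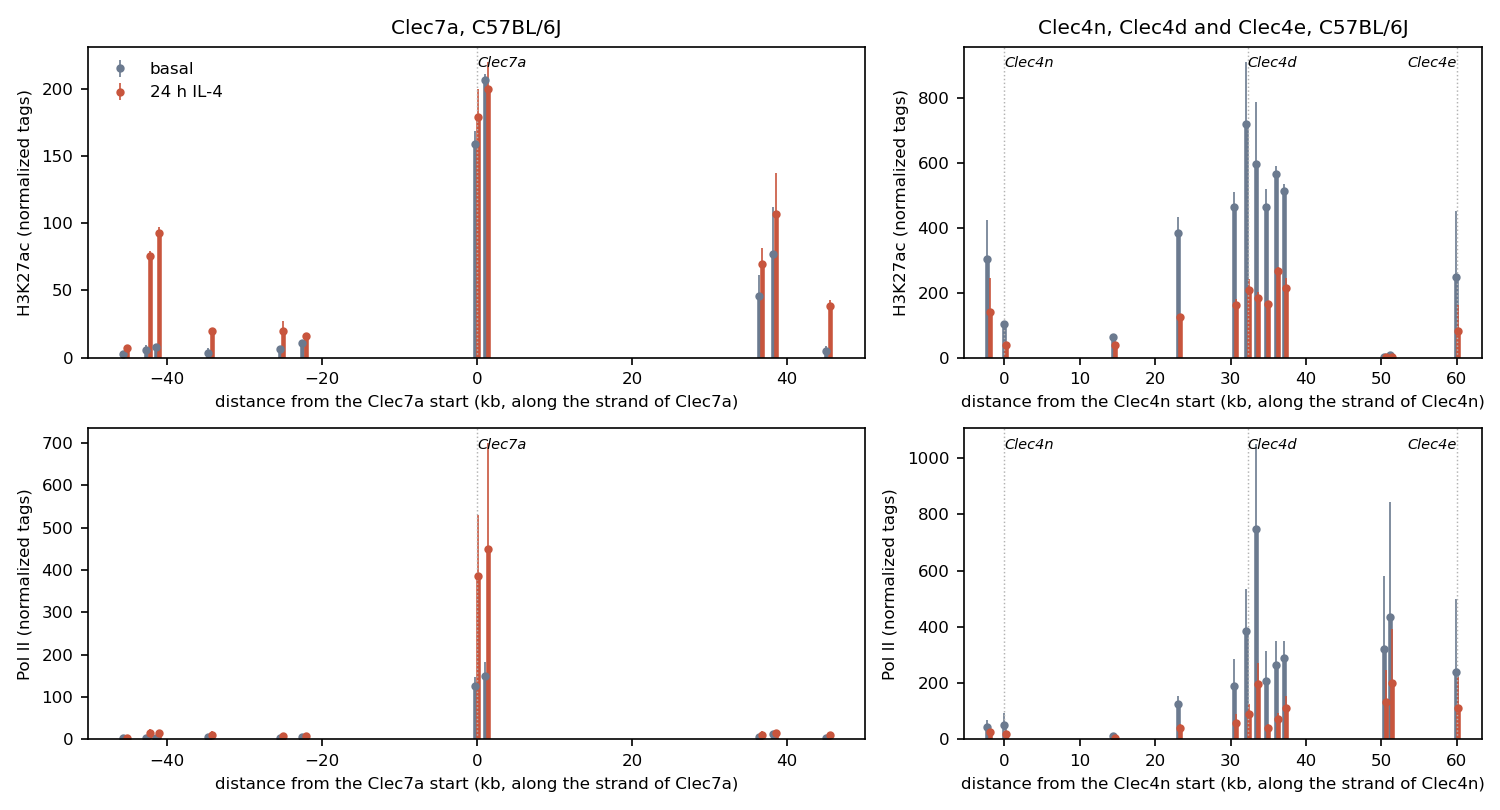
Mean tags ± SD in C57 BMDMs against the distance (kb) of each region from the Clec7a start (left) and from the Clec4n start (right), with H3K27ac above and Pol II below; blue-grey is basal and red is 24 hours of IL-4. H3K27ac upstream of Clec7a at −41 and −42 kb was between 3.57 and 8.14 tags in basal libraries and between 73.0 and 95.8 in treated ones, while all Clec4d regions were lower after IL-4.

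The −42 kb region was the one place where both marks passed the fold rule in the higher direction in all 5 strains. H3K27ac was 8.14 and 3.57 tags in basal C57 libraries and 73 and 78.1 in treated ones. It was 7.35 and 4.77 against 46.7 and 28.1 in BALB and 9.14 and 9.53 against 55.7 and 81.05 in NOD. It was 15.4 and 18.8 against 114 and 78.3 in PWK and 5.98 and 7.90 against 71.4 and 30.1 in SPRET. The groups did not overlap in any strain, and basal levels were highest in PWK. By limma, H3K27ac rose there in BALB (log2 2.42 ± 0.56, adjusted p = 0.00174), PWK (2.40 ± 0.50, 0.0412) and SPRET (2.59 ± 0.51, 0.0164). In C57 it was 3.57 ± 0.54 (adjusted p = 0.108) and in NOD 2.72 ± 0.55 (0.118), larger changes that did not pass in tables where limma called few regions.

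The −41 kb region, listed in 4 strains, lies about 1 kb from it, so their 1000-bp windows can share fragments. H3K27ac was 7.46 and 7.84 and then 89.1 and 95.8 tags in C57, and 8.82 and 8.94 and then 88.1 and 40.5 in BALB. It was 16.6 and 13.5 and then 111 and 145 in NOD, and 24.03 and 11.8 and then 183 and 109.8 in PWK. No strain overlapped. H3K27ac rose in BALB (log2 2.62 ± 0.57, adjusted p = 0.000642) and PWK (3.0 ± 0.52, 0.0149), while C57 (3.43 ± 0.45, 0.106) and NOD (3.0 ± 0.52, 0.0837) did not pass limma.

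These −41 and −42 kb calls were the 5 H3K27ac calls of the 4 genes in the strain tables: 2 in BALB, 2 in PWK and 1 in SPRET. All 5 regions were listed from the 24-hour open chromatin of their strain alone. They thus entered only through the condition in which they were higher. Over all regions, limma called 2.26% in BALB, 0.535% in PWK and 1.19% in SPRET. In C57 it called 0 of 24 and 0% of all regions, and in NOD 0 of 23 and 0.0566% of all. At an unadjusted p below 0.05 the counts were 13 of 24 in C57 and 12 of 23 in NOD, beside 22% and 12.4% of all regions, and edgeR called 0 in both. Leaving out 1 library leaves a group of 1, which is assumed to vary like the other group, with limma pooling the spread over regions, so these fits have little power. The log2 differences of the called sites then ran from 2.07 to 3.17 (BALB), from 2.14 to 3.49 (PWK) and from 1.98 to 3.2 (SPRET). In PWK 0 were called without treated replicate 1 or treated replicate 2, and in SPRET 0 were called whichever of the 4 libraries was left out. In BALB 0 were called without basal replicate 2, 1 without basal replicate 1, and 0 higher and 7 lower without treated replicate 1. Both PWK calls were also lost under median-ratio scaling (adjusted p 0.0527 at −41 kb and 0.0696 at −42 kb).

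Pol II at −42 kb was far lower than at the start but was higher after IL-4 by the fold rule in all 5 strains. Over the other Clec7a regions the 2 marks did not always go together. In NOD 12 of 12 Clec7a regions had higher means in H3K27ac and 9 of 12 in Pol II. At −42 kb in PWK it was 1.41, 2.10 and 3.03 tags in basal and 20.9, 22.6 and 20.5 in treated libraries (log2 2.84 ± 0.44, limma adjusted p = 0.00455). At −41 kb in PWK it was 3.53, 2.80 and 0 and then 25.9, 17.2 and 20.5 (3.09 ± 0.57, adjusted p = 0.0132). Both rose, with treated libraries well above basal ones. In BALB the −42 kb values were 1.28, 1.19 and 4.38 and then 19.2 and 15.1. This passed limma (2.59 ± 0.72, adjusted p = 0.0461) but was lost without any single library, on leaving out low regions and under median-ratio scaling (adjusted p up to 0.772). In SPRET the −42 kb values were 0.97, 2.28 and 2.05 and then 12.7, 6.36 and 8.31 (adjusted p = 0.0891, or 0.0234 with the replicate block). In C57 the groups overlapped, with 10.6, 0.80, 0.54 and 2.03 tags in basal and 24.7, 10.5 and 7.70 in treated libraries, basal replicate 1 being the high one.

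In Pol II, limma called 5 regions in PWK, all at Clec7a and all higher, beside 1.72% of all regions. They were the start, the gene end, −41 kb, −42 kb and a −27 kb region in an intron of Olr1, an oxidised-LDL receptor gene, with 1.41, 0.70 and 2.27 basal and 14.4, 14.01 and 23.9 treated tags. All treated libraries were above all basal ones at −27 kb. Of the 5, the start was listed from both conditions and the others from the 24-hour open chromatin alone. One call was made in each of BALB (0.707% of all regions) and SPRET (1.05%), and 3 in C57, all lower and all at Clec4d (0.319%). In NOD limma called 0 of 23 and 0% of all regions, with 10 at an unadjusted p below 0.05 (7.65% of all regions) and 0 by edgeR. With the replicate block, in the 3 strains where numbers paired the libraries, 12 regions were called in C57 (10 lower and 2 higher, beside 0.809% of all), 14 in PWK (9 higher at Clec7a, 1 higher upstream of Clec4n and 4 lower, beside 9.78%) and 5 in SPRET (3 higher and 2 lower, beside 8.39%). Without treated replicate 2, PWK had 0 Pol II calls in the unblocked fit, against 3 to 6 without any other library.

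Downstream of Clec7a, the strains differed in the level before IL-4. At +45 kb, in the 3′ UTR of Clec1a, H3K27ac was 7.46 and 2.85 tags in basal C57 libraries and 34.8 and 41.4 in treated ones. In SPRET the same region held 82.9 and 145 tags before and 219 and 162 after IL-4. In PWK it held 3.43 and 39.1 and then 99.7 and 100.2. The basal SPRET libraries were higher than every C57 library, basal or treated, and in all 3 strains the treated libraries were above the basal ones. In BALB the values were 7.35 and 12.5 and then 19.6 and 13.8, and in NOD 4.16 and 8.73 and then 10.8 and 50.7, without overlap in either strain. A region at +48 kb, in the 3′ UTR of Clec9a, was listed in PWK and SPRET only, and held 25.8 and 54.03 and then 176 and 129.8 tags in PWK and 154 and 215 and then 314 and 223 in SPRET. The tables of the strains were normalized and listed separately, so the difference between strains was not tested. The +38 kb region was acetylated in every basal library, for example 102 and 52.05 tags in C57 and 124 and 136 in SPRET, with 128 and 84.7 and 239.8 and 152 after IL-4; C57 overlapped and SPRET did not.

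In the Clec4 cluster, 41 of 44 regions over the 5 strains had lower mean tags after IL-4 in H3K27ac, and 41 of 44 in Pol II, where 1 Clec4n region each in NOD, PWK and BALB was higher. Of all regions, 39.7%, 34.6%, 38.7%, 38.6% and 44.6% were higher in H3K27ac in C57, BALB, NOD, PWK and SPRET. In Pol II 46.0%, 67.5%, 47.5%, 46.7% and 40.9% were. Of regions with at least 200 H3K27ac tags, 94.2%, 85.9%, 84.6%, 80.0% and 71.6% were lower. Of those with at least 100 Pol II tags, 43.0%, 12.2%, 59.1%, 56.2% and 72.2% were. Nothing particular to the cluster is read from the H3K27ac count. The lowest medians in C57 were at Clec4d, whose product forms complexes with Mincle or Dectin-2. At its start, listed as a region in C57 only, Pol II was 554, 392, 399.8 and 189 tags in basal and 127, 88.7 and 56.4 in treated libraries. H3K27ac there was 856 and 586 and then 233 and 184. No treated library reached a basal one in either mark. At +3.9 kb, in intron 2, Pol II was 358, 295, 243 and 160.0 and then 97.4, 59.6 and 61.6 tags, again without overlap. Pol II fell by log2 2.04 ± 0.39 at the start, by 2.2 ± 0.42 at +2.5 kb and by 1.82 ± 0.35 at +3.9 kb (limma, adjusted p = 0.0392 for each). The start and the +2.5 kb region were listed from basal open chromatin alone, the condition in which they were higher. These 3 calls were lost without treated replicate 1, treated replicate 2, treated replicate 3, basal replicate 2 or basal replicate 3, and the +2.5 kb call alone was kept without basal replicate 4. All 7 Clec4d regions in C57 were lower in both marks, with a median log2 difference of −1.84 in Pol II and −1.52 in H3K27ac.

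The Clec4d −9.1 kb region, between Clec4n and Clec4d, was listed in all 5 strains and so allowed a comparison of this locus across them. H3K27ac in C57 was 419 and 349 and then 128 and 120.1 tags. In NOD it was 501 and 539 and then 257 and 140.2, and in SPRET 271 and 135 and then 117 and 81.8. Groups did not overlap in these strains, nor in BALB (433 and 293, then 222 and 63.4) and PWK (419 and 281, then 253 and 126). Pol II went from 154, 132, 123 and 88.1 to 48.7, 47.3 and 25.6 in C57 and from 166, 103 and 108 to 71.2, 26.9 and 54.7 in PWK. It went from 199 and 139.7 to 56.5 and 35.8 in NOD and from 94.8, 28.2 and 37.5 to 26.2, 17.7 and 3.69 in SPRET. BALB was the strain whose Pol II groups overlapped, at 153, 100.2 and 42.7 and then 51.1 and 33.3. The log2 differences in H3K27ac were −1.61, −1.58, −1.45, −0.94 and −0.96 in C57, BALB, NOD, PWK and SPRET, none of which passed limma (adjusted p 0.114 to 0.573). In Pol II the blocked fit gave −1.77 ± 0.28 in C57 (limma, adjusted p = 0.0140), −1.36 ± 0.24 in PWK (1.71e-06) and −1.83 ± 0.35 in SPRET (0.00408), where the unblocked fit gave adjusted p = 0.0616, 0.0683 and 0.213.

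A general shift of H3K27ac stood beside these values. In C57 43.2% and 38.2% of treated H3K27ac tags lay in the listed regions, against 65.4% and 59.6% of basal ones. In BALB it was 57.1% and 28.7% against 58.6% and 51.2%. In NOD it was 54.005% and 41.95% against 63.04% and 60.55%. PWK (55.05% and 38.1% against 53.5% and 55.2%) and SPRET (51.8% and 39.6% against 48.4% and 51.02%) overlapped. The part of this in the H3K27ac values of the Clec4 cluster and of Clec7a was not tested. Among the 10343 C57 regions with at least 200 H3K27ac tags in either group, 94.2% were lower after IL-4. Their median log2 difference was −0.85 and their 5th percentile −1.70. The C57 values at Clec4d ran from −1.78 to −1.08, with a median of −1.52. They lay in the lower part of this distribution, the lowest of them beyond its 5th percentile. In Pol II the 10354 C57 regions with at least 100 tags had a median of 0.06 and a 5th percentile of −0.76, above the values of Clec4d. Over all regions the H3K27ac median was −0.28, −0.26, −0.22, −0.17 and −0.07 in C57, BALB, NOD, PWK and SPRET.

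Clec4n, the Dectin-2 gene, held less Pol II at its start than Clec4d in C57. At its start Pol II was 108, 56.2, 25.7 and 11.1 tags in basal and 26.7, 17.8 and 10.3 in treated C57 libraries, which overlapped. Replicate 1 was the highest in both groups. In SPRET it was 149.01, 35.02 and 30.8 and then 47.3, 21.9 and 14.8, and in PWK 40.2, 10.5 and 24.2 and then 28.04, 3.23 and 5.13. These overlapped too, but libraries of the same number moved one way: in C57, PWK and SPRET, where the numbers paired them, 9 of 9 treated libraries were lower than their basal partner, at 0.212 to 0.697 of it. With the replicate block Pol II fell by log2 1.33 ± 0.36 in PWK (limma, adjusted p = 0.00409) and by 1.10 ± 0.24 in SPRET (0.00855), and was −1.61 ± 0.35 in C57 (0.0518); without the block none of these passed. H3K27ac at the Clec4n start was 105 and 101 and then 44.1 and 35.4 tags in C57, 136 and 145 and then 74.5 and 34.3 in BALB, and 166 and 177 and then 56.4 and 27.6 in NOD. It did not overlap in these strains, nor in PWK (44.6 and 65.8, then 39.7 and 25.8), while SPRET overlapped (241 and 113, then 189 and 85.1). None passed limma (adjusted p 0.144 to 0.810). Set side by side by number, the treated H3K27ac library was lower in 10 of 10 cases, at 0.156 to 0.890 of the basal one. These libraries were not taken as paired.

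Clec4e, the Mincle gene, had levels that differed widely between replicates of one condition. H3K27ac at its start was 393 and 102 tags in basal and 138 and 24.3 in treated C57 libraries. It was 449 and 109.5 and then 208 and 22.5 in NOD, and 378 and 139 and then 168 and 24.8 in BALB. Basal and treated libraries overlapped in each of these strains, and replicate 1 exceeded replicate 2 in 8 of 8 groups, by 2.72 to 9.25 times. The same ratio at Clec7a was above 1 in 6 of 10 groups and at Clec4n in 7 of 10. In SPRET the start held 329 and 112 and then 262 and 95.8 tags, and no region was listed near Clec4e in PWK. Set side by side by number, the treated H3K27ac library was lower in 8 of 8 cases, at 0.178 to 0.856 of the basal one. These libraries were not taken as paired. In Pol II of C57 and SPRET, where the numbers paired the libraries, the treated library was lower in 6 of 6 pairs, at 0.228 to 0.823 of its partner. Pol II in C57 was 548, 361, 33.8 and 19.2 tags in basal and 223, 105 and 7.70 in treated libraries, a difference of log2 −0.88 ± 1.07 without the block (limma, adjusted p = 0.951) and −1.69 ± 0.28 with it (0.0154). What set replicate 1 apart at Clec4e is not given by the labels, and its part in the result was not tested.

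**Figure D3:**
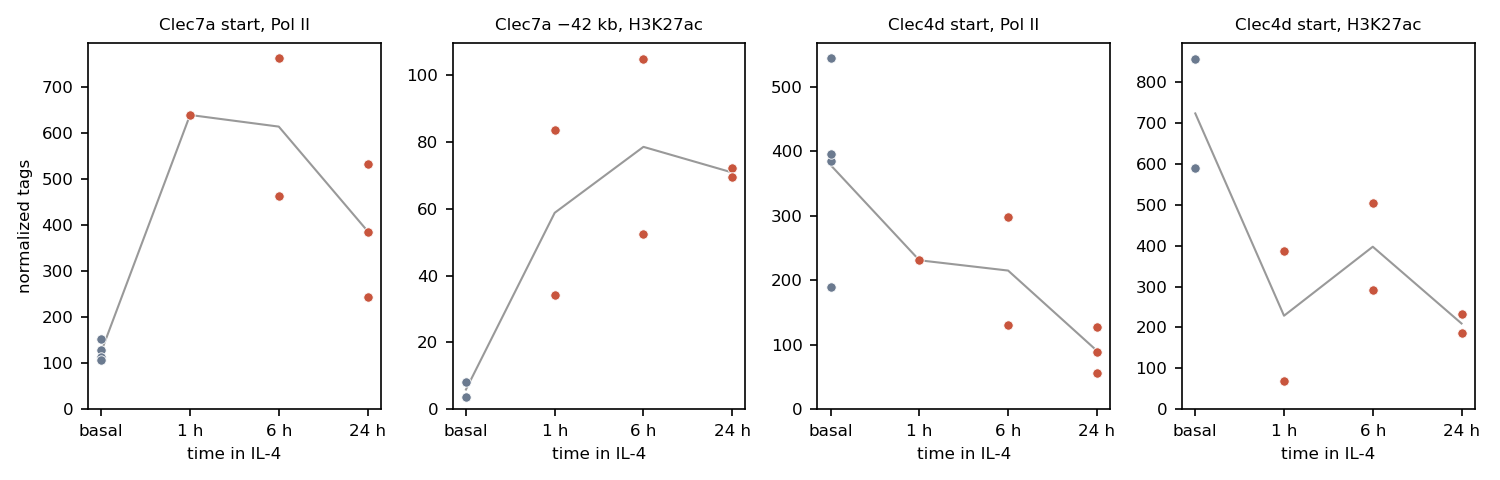
Normalized tags in C57 BMDMs at basal state and 1, 6 and 24 hours of IL-4 for Pol II at the Clec7a start, H3K27ac at Clec7a −42 kb, Pol II at the Clec4d start and H3K27ac at the Clec4d start. Points are libraries and lines join group means; Clec7a values are above basal at 1 hour, and Pol II at the Clec4d start is lowest at 24 hours.

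The C57 time course asked how soon these changes appeared; its basal and 24-hour libraries are those of the C57 comparison above, and its 1-hour Pol II is a single library. At the Clec7a start Pol II was 152, 128, 114 and 107 tags at basal state, 639 at 1 hour, 763 and 464 at 6 hours and 532, 384 and 244 at 24 hours. The gene end held 113, 117, 148 and 90.1, then 899, then 777 and 802, and then 774, 662 and 168. Every treated library was above every basal one at both places, and the 1-hour library lay within the later range at the start and above it at the gene end. At 6 hours Pol II rose at the start (log2 2.25 ± 0.40, limma adjusted p = 0.0185), in intron 1 (2.37 ± 0.47, 0.0297) and at the gene end (2.77 ± 0.51, 0.0203). These 3 were the Pol II calls of the 29 regions at 6 hours, beside 0.566% of all regions, and 0 were called without 6-hour replicate 1, 6-hour replicate 2, basal replicate 3 or basal replicate 4; leaving out basal replicate 1 or 2 gave 6 or 2. At 1 hour limma called 0 of 29 in Pol II (0.0911% of all), with 8 at an unadjusted p below 0.05 (10.05% of all regions). By edgeR 3 were called, with no edgeR share of all regions to set beside them. The 1 library of that time has no spread of its own and was assumed to vary like the other times, which supplied the error.

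At −42 kb the treated libraries stood above the basal ones from 1 hour on. H3K27ac was 8.14 and 3.57 tags at basal state and 83.5 and 34.1 after 1 hour. It was 105 and 52.3 at 6 hours and 72.2 and 69.6 at 24 hours. The treated libraries overlapped with each other but not with basal ones. It rose by log2 3.07 ± 0.61 at 1 hour (limma, adjusted p = 0.0127), 3.54 ± 0.61 at 6 hours (0.00336) and 3.47 ± 0.61 at 24 hours (0.00670), each kept in 7 of 8 fits that left out 1 library; the 1-hour and 24-hour calls were lost without basal replicate 2 (adjusted p = 0.124 and 0.0574) and the 6-hour call without 6-hour replicate 1 (0.121). The −41 kb region was listed in C57 from the 24-hour open chromatin alone. It thus entered only through a condition in which it was higher, which limits what its calls can show. H3K27ac at −41 kb was 7.46 and 7.84, then 68.03 and 26.2, then 61.6 and 71.8, and then 89.1 and 95.8. It rose at each time (2.32 ± 0.57, 2.96 ± 0.57 and 3.43 ± 0.57; limma adjusted p = 0.0229, 0.00669 and 0.00477), and the 24-hour call was kept in 8 of 8 such fits, while the 6-hour call was lost without either 6-hour library and the 1-hour call without either basal or either 6-hour library. The time-course fit, which pools the spread of 4 groups, called these sites at 24 hours where the fit of the same libraries in 2 groups did not.

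Further Clec7a sites passed at single times. At −34 kb, near the start of Olr1, H3K27ac was 6.11 and 1.43 at basal state and 33.9 and 34.1 at 6 hours, when it rose by log2 3.07 ± 0.71 (limma, adjusted p = 0.0188). At +45 kb it was 7.46 and 2.85 at basal state and 33.95 and 41.4 at 24 hours, when it rose by 2.75 ± 0.64 (0.0373). In all, limma called 6 of 29 regions at 1 hour (2 higher at Clec7a and 4 lower in the Clec4 cluster), 3 at 6 hours and 3 at 24 hours, beside 9.72%, 5.13% and 1.45% of all regions. Without 1-hour replicate 2 the 1-hour calls were 4 higher and 1 lower, without 1-hour replicate 1 they were 2 higher and 10 lower, without either 6-hour library there was 1, and leaving out basal replicate 1 or 2 gave 2 or 0. At 6 hours there were 0 calls without 6-hour replicate 1, 1 without 6-hour replicate 2 and 5 without either 1-hour library; at 24 hours there were 10 without either 1-hour library and 1 without basal replicate 2.

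By the fold rule, 4 regions were higher and 6 lower in H3K27ac at 1 hour, beside 2.31% and 20.6% of all regions, and 5 were higher and 1 lower at 6 hours, beside 5.59% and 8.63%. In Pol II 6 were higher and 2 lower at 1 hour (2.76% and 6.56% of all), and 6 higher and 1 lower at 6 hours (2.52% and 2.57%). The many lower regions at 1 hour stand beside a library, H3K27ac 1-hour replicate 2, with 20.5% of its tags in the listed regions against 44.0% in replicate 1. The 4 lower H3K27ac calls at 1 hour, 1 at Clec4n and 3 at Clec4d, were lost under median-ratio scaling.

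Pol II over Clec4d was lowest at the last time. At its start it was 545, 385, 396 and 189 tags at basal state, 231 at 1 hour, 299 and 131 at 6 hours and 127, 88.7 and 56.4 at 24 hours. The 24-hour libraries were below all others, while those of 1 and 6 hours overlapped with basal ones. H3K27ac was 858 and 589.7 at basal state, 387 and 69.9 at 1 hour, 504 and 291 at 6 hours and 233 and 186 at 24 hours. At 24 hours limma called 4 of 29 regions in Pol II, all at Clec4d and all lower (start, log2 −2.03 ± 0.42, adjusted p = 0.0325), beside 0.677% of all regions. With the replicate block, as numbers paired these libraries, 17 were called (12 lower and 5 higher, beside 2.36%). Without 24-hour replicate 1, 24-hour replicate 2, basal replicate 2 or basal replicate 3, 0 were called in the unblocked fit. At the Clec4e start Pol II was 185 at 1 hour and 215 and 154 at 6 hours, within the basal range of 548, 361, 33.8 and 19.2.

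**Figure D4:**
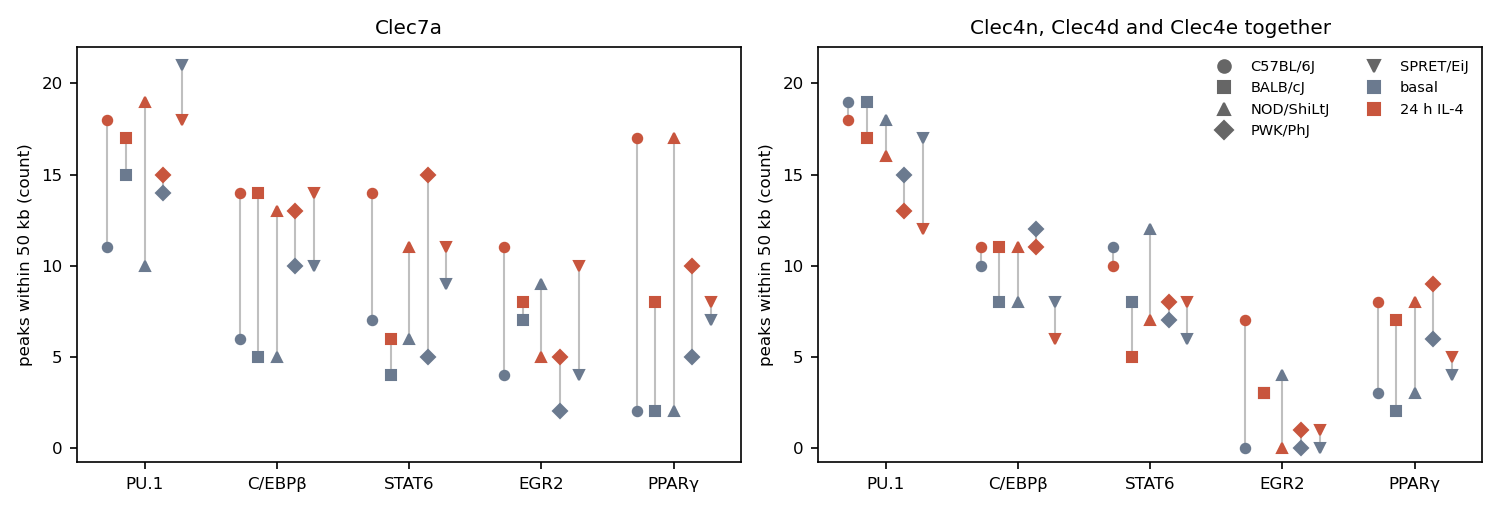
Number of reproducible peaks within 50 kb of Clec7a (left) and of Clec4n, Clec4d and Clec4e together (right) for 5 transcription factors, basal against 24 hours of IL-4, with 1 point per strain. For PPARγ near Clec7a the counts were 2 to 7 in basal and 8 to 17 in treated BMDMs.

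Factor peaks near Clec7a were more numerous after IL-4 for most factors and strains, and most treated lists were longer too. PPARγ, a nuclear receptor linked to lipid metabolism, had 2 basal and 17 treated peaks within 50 kb in both C57 and NOD, 2 and 8 in BALB, while PWK had 5 and 10 and SPRET had 7 and 8. For C/EBPβ the basal and treated counts in C57, BALB, NOD, PWK and SPRET were 6 and 14, 5 and 14, 5 and 13, 10 and 13, and 10 and 14. STAT6, the factor that IL-4 activates directly, had 7 and 14, 4 and 6, 6 and 11, 5 and 15, and 9 and 11 in the same order. EGR2 had 4 and 11, 7 and 8, 9 and 5, 2 and 5, and 4 and 10, so NOD went the other way. PU.1, the lineage factor of macrophages, had 11 and 18, 15 and 17, 10 and 19, 14 and 15, and 21 and 18, with SPRET the other way. In both exceptions the whole treated list was shorter too. EGR2 in NOD had 25341 basal and 16604 treated peaks, and PU.1 in SPRET had 101317 and 80580. No strain difference is read from them. Each list pools its replicates into one set of peaks, so these counts carry no replicate error, and the lists differ in length: 18043 basal and 37499 treated C/EBPβ peaks in C57. For PPARγ in C57, the 4 genes together held 5 of 7627 basal peaks and 25 of 39088 treated ones.

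The share of treated peaks without a basal peak was read against the same share of all peaks. Near Clec7a over the 5 strains, 26 of 87 PU.1 peaks were without a basal partner where 15.7% of all PU.1 peaks were. For C/EBPβ it was 34 of 68 beside 45.7%, for STAT6 27 of 57 beside 49.5%, for EGR2 18 of 39 beside 54.8%, and for PPARγ 44 of 60 beside 72.1%. These shares were set side by side with no test. In C57 alone the counts near Clec7a were 7 of 18 in PU.1 (18.9% of all), 9 of 14 for C/EBPβ (53.8%), 7 of 14 for STAT6 (41.2%), 7 of 11 for EGR2 (72.5%) and 15 of 17 for PPARγ (84%). Near Clec4n, PPARγ had 19 treated peaks over the 5 strains, 12 of them without a basal partner, and EGR2 had 1; near Clec4d EGR2 had 5 and PU.1 34; near Clec4e EGR2 had 6 and PU.1 15.

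Single sites showed which factors were there before IL-4. At the Clec7a start, PU.1 and STAT6 had a peak in all 5 strains in both conditions, EGR2 in 3 strains at basal state and 5 after IL-4, C/EBPβ in 2 and then 4, and PPARγ in 1 and then 2. At −42 kb C/EBPβ had a peak in 5 strains in both conditions, PU.1 in 3 and then 5, EGR2 in 2 and then 4, STAT6 in 0 and then 3, and PPARγ in 1 and then 2. At −41 kb PU.1 had a peak in 5 strains in both conditions, C/EBPβ in 0, PPARγ in 0 and then 3, and STAT6 in 0 and then 2. EGR2 had none there at basal state and 1 after IL-4, in C57, whose score of 549 placed it at 98.6% of its list counted from the best peak. PU.1 peaks were thus present at −41 kb in basal BMDMs of all 5 strains. At the starts of Clec4n and Clec4d EGR2 had no peak in any strain, while at the Clec4e start it had one in 2 strains at basal state and in 4 after IL-4. At the Clec4d start STAT6 had a peak in 3 strains and then 1.

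EGR2 tags were followed over time in C57. At Clec7a +38 kb EGR2 was 139 and 113 tags at basal state, 28 and 144 at 1 hour, 85.5 and 311 at 6 hours and 235 and 241 at 24 hours. At the start it was 139 and 76.5, then 45.2 and 122, then 89.04 and 172, and then 181 and 151. Both 24-hour libraries were above both basal ones at each site, and the 2 libraries of 1 hour and of 6 hours were far apart. At −42 kb the values were 36.1 and 16.1, then 2.71 and 33.8, then 8.73 and 51.4, and then 61.04 and 30.7, with overlap. Limma called 0 of 18 regions at any time, and 0% of all regions at 1, 6 and 24 hours, with 0 of 18 at an unadjusted p below 0.05 at each time. Beside this, EGR2 1-hour replicate 1 had 5.38% of its tags in the listed regions and replicate 2 had 13.1%; without replicate 2, limma called 3 regions lower at 1 hour.

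**Figure D5:**
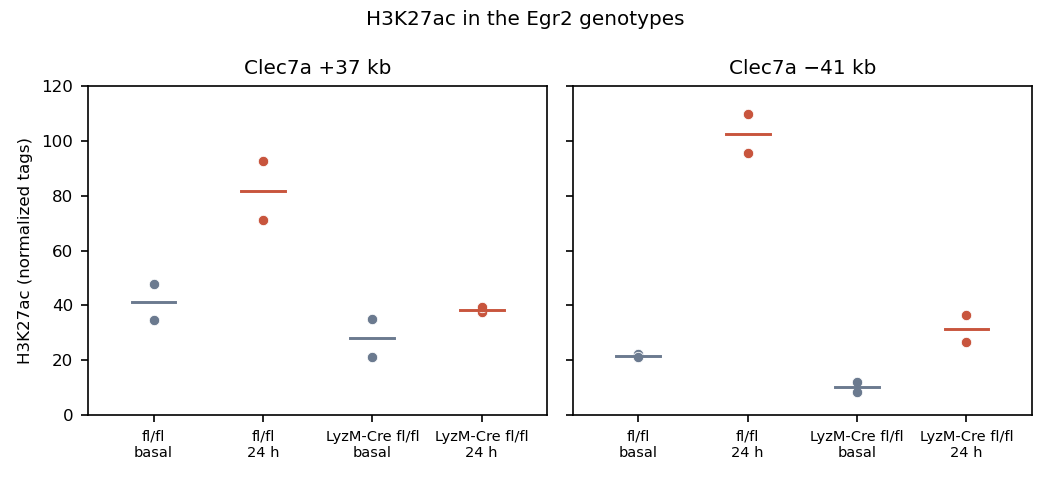
H3K27ac tags at Clec7a +37 kb and −41 kb in Egr2 fl/fl and LyzM-Cre Egr2 fl/fl BMDMs, basal and after 24 hours of IL-4; points are libraries and bars are means. At −41 kb the treated LyzM-Cre libraries lie at 26.7 and 36.4 tags, below the treated fl/fl libraries at 95.5 and 109.8.

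The genotype tables hold 4677 EGR2 sites that IL-4 induced at 24 hours by the authors' selection, and 2 of them lay near these genes, both at Clec7a. At −41 kb H3K27ac in Egr2 fl/fl BMDMs was 22.1 and 21.04 tags at basal state and 95.5 and 109.8 after IL-4. In LyzM-Cre Egr2 fl/fl BMDMs it was 12.03 and 8.41 and then 36.4 and 26.7. The 4 groups did not overlap, and the treated LyzM-Cre libraries stayed above the basal libraries of both genotypes. After IL-4 the LyzM-Cre value was lower by log2 1.68 ± 0.31 (limma, adjusted p = 0.00140, kept in 8 of 8 fits without 1 library); 24.7% of all sites passed in this comparison. At basal state the difference was −1.03 ± 0.31 (adjusted p = 0.182, beside 0.192% of all sites). It rose with IL-4 by 2.19 ± 0.31 in fl/fl (9.21e-05, beside 28.1% of all sites) and by 1.54 ± 0.31 in LyzM-Cre BMDMs (0.00205, beside 18.5%). The difference between these responses was −0.66 ± 0.44 (adjusted p = 0.554, beside 0%), so a smaller response with the deletion was not shown by this test.

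At +37 kb, the other site, H3K27ac was 47.7 and 34.6 and then 92.5 and 71.3 tags in fl/fl, and 35.1 and 21.3 and then 37.4 and 39.5 in LyzM-Cre BMDMs. The treated fl/fl libraries were above all others. The genotypes differed after IL-4 by −1.06 ± 0.30 (limma, adjusted p = 0.0181), which was lost under median-ratio scaling (0.227) and without any one of the 4 treated libraries (up to 0.161). The difference between the responses was −0.51 ± 0.43 (adjusted p = 0.648).

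The factors themselves were measured at these sites too. PU.1 at −41 kb was 16.1 and 21.4 and then 41.98 and 45.1 tags in fl/fl, and 28.9 and 24.4 and then 38.98 and 50.5 in LyzM-Cre BMDMs. It rose with IL-4 in fl/fl (log2 1.18 ± 0.26, limma adjusted p = 0.0122, beside 8.23% of all sites; lost under median-ratio scaling and without any one of the 4 fl/fl libraries, with adjusted p up to 0.171) and differed by 0.03 ± 0.26 between genotypes after IL-4 (0.963). Of the 2 sites, limma called 0 between genotypes after IL-4 for PU.1 (9.45% of all sites called), C/EBPβ (8.25%), STAT6 (0.0214%), PPARγ (0%) and H3K4me2 (9.09%), edgeR called 0 too, and 0 had an unadjusted p below 0.05 by limma. PPARγ at +37 kb was 30.1 and 11.1 and then 121 and 58.3 tags in fl/fl, and 67.1 and 44.8 and then 29.2 and 49.1 in LyzM-Cre BMDMs, with an interaction of −2.65 ± 1.01 (limma, adjusted p = 0.352). Pol II had 1 library per group and no test. At −41 kb it was 0.83 and then 8.51 tags in fl/fl, and 2.60 and then 2.66 in LyzM-Cre BMDMs. EGR2 occupancy and Egr2 deletion in these genotypes were not analysed here.

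Genes known to act with these receptors were read at their starts in the same tables. Of 15 genes of the signalling route (among them Fcer1g, the γ chain, Syk and Card9), 13 had a region at their start in C57. By the fold rule 0 were higher and 3 lower in H3K27ac (the kinase gene Lyn, the phospholipase gene Plcg2 and the exchange factor gene Vav1), beside 3.46% and 7.55% of all regions, and 0 were higher or lower in Pol II. The list's medians were −0.98 and −0.02 beside all-region medians of −0.28 and −0.05, but in H3K27ac regions with at least 200 tags in either group had a median of −0.85 and the 7 macrophage marker starts one of −1.17. Of 19 other C-type lectin receptor genes, 9 had such a region. Mgl2 (a galactose-type lectin and an IL-4 marker) was higher by the rule in both marks in all 5 strains, with H3K27ac of 22.2 and then 140 tags in C57 on average, and Mrc1, the mannose receptor, in Pol II in 4 strains. Olr1, between Clec7a and the −41 kb sites, was higher in H3K27ac in C57, from 3.77 ± 3.31 to 19.8 ± 2.01 tags (SD, n = 2). Of 13 genes that signalling by the receptors induces, 9 had a region in C57; Egr2 was higher in H3K27ac (6.58 to 35.7 tags on average) and in Pol II (5.63 to 26.7), and Cxcl2 and Nfkbiz were lower in H3K27ac. Limma called 0 genes of the signalling route in any strain in either mark, and edgeR called 0 too; at an unadjusted p below 0.05 there were 7, 0, 4, 1 and 0 in H3K27ac in C57, BALB, NOD, PWK and SPRET and 0, 0, 2, 1 and 2 in Pol II, all lower. Of all regions, 15.1%, 6.69%, 6.91%, 5.41% and 5.89% were lower at that threshold in H3K27ac, and 94.2% of the C57 regions with at least 200 tags had a lower mean, so nothing particular to the list is read from these counts.

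By limma, Pol II rose at the Mgl2 start in C57 (log2 2.52 ± 0.47, adjusted p = 0.0385), BALB (3.11 ± 0.65, 0.00102), PWK (3.85 ± 0.51, 0.00167) and SPRET (1.83 ± 0.29, 0.0151), and H3K27ac rose there in PWK and SPRET. Mrc1 rose in Pol II in PWK (2.11 ± 0.28, adjusted p = 0.00174) and Clec2i, a lectin-like gene, in SPRET (1.18 ± 0.23, 0.0407). These were all the calls among the other lectin receptor genes at 24 hours in the 5 strains, each of them higher. Of the genes induced by the receptors, Egr2 was the only call: it rose in H3K27ac in BALB (1.92 ± 0.57, 0.0386) and in Pol II in PWK (2.15 ± 0.36, 0.00803) and SPRET (1.53 ± 0.29, 0.0328). In fits that left out 1 library, the Mrc1 call was kept in 6 of 6, the Mgl2 calls in Pol II in 5 of 6 in PWK, 4 of 5 in BALB, 2 of 6 in SPRET and 1 of 7 in C57, and the Egr2 calls in Pol II in 3 of 6 in PWK and 0 of 6 in SPRET. The H3K27ac calls were kept in 1 of 4 (Mgl2 in PWK), 0 of 4 (Mgl2 in SPRET) and 1 of 4 (Egr2 in BALB), and the calls of Clec2i and Zbtb46 were each lost whichever library was left out. With the replicate block in Pol II, the signalling route had 0 calls in C57, 1 lower in PWK, and 1 higher and 1 lower in SPRET. Of the marker genes, limma called Zbtb46, a dendritic-cell gene, higher in Pol II in PWK (2.0 ± 0.47, adjusted p = 0.0471). Of the 7 macrophage marker genes it called 0 in C57 in H3K27ac (edgeR 0), with 6 at an unadjusted p below 0.05, all lower; their part in the lower H3K27ac of the Clec4 cluster was not tested.

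Over the 8 H3K27ac libraries of the C57 time course, the start regions most like those of each gene were found among 9507 promoter regions, by Pearson's r, as a description. Clec7a was most like Cmklr1 (0.994), Tfec (0.991) and Zfp608 (0.975). Clec4n was most like Slc35a1 (0.977), Cd53 (0.976) and Tle4 (0.970), and Clec4e was most like Acsl1 (0.988), Hpn (0.985) and Prdm11 (0.983). Clec4d was most like Lyz2 (0.997), the gene whose promoter drives the Cre above, with Gpx1 (0.995) and 1700064H15Rik (0.992); Lyz2 itself went from 716 to 263 H3K27ac tags on average after 24 hours of IL-4 in C57. Among the 4 genes, Clec4n and Clec4d had an r of 0.949, Clec4n and Clec4e 0.806, Clec4d and Clec4e 0.803, and Clec7a with the other 3 between 0.595 and 0.638. The points share libraries and depth, and neighbours in the cluster share fragments.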

How the data were processed

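Tags and peaks were taken from the deposited tables of 155 ChIP-seq libraries and 54 peak lists (267 samples in 138 groups, 12 of them inputs). These are signal values: the authors used Bowtie2 with strain-specific genomes, moved positions to mm10 and counted tags with HOMER, scaled to 10000000 tags per library, in 1000 bp around open-chromatin regions (300 bp for factors in the Egr2 genotypes). The deposited score of each peak came from the authors' test of reproducibility between replicates, which left 1 list for each group. Groups came from the sample labels; 4 Pol II columns of the genotype tables matched no label and were not used. Totals ran from 4691644 to 29050468 tags (median 12936233), so that 16 normalized tags stood for 7.51 to 46.5 reads, and whole reads were recovered for 100% of 7268918 values within 0.1 read.

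Regions and peaks were assigned to the nearest of the 4 starts within 50000 bp. Tests were limma 3.58.1 (R 4.3.3) on log2(tags + 1) over all rows of a table, with trend, no filter on low values and Benjamini-Hochberg adjustment at 0.05; a fold on this scale understates changes of low regions. The fold rule used the ratio of group means + 1. Alternatives were a pseudocount of 5, a filter on low tags, median-ratio scaling, edgeR 4.0.16 on the recovered reads, the replicate number as a block and leaving out each library; peak counts were repeated with a larger overlap (at least 0.5 of the peak), with the better-scored part (0.5 of each list) and with lists of equal length. In 4 Pol II comparisons libraries of the same number were taken as paired from a check of the data. These were C57, PWK and SPRET at 24 hours and the time course at 24 hours, which reuses the C57 libraries. Each had 3 pairs, with every pair r above 0.1 (from 0.109 to 0.469). The other 67 comparisons had 2 pairs and were not taken as paired. Their r ran from −0.073 to 0.492, so some of them exceeded 0.1 too. The labels state no pairing. Sites were named by position: the start, the strongest distal region and the regions past a test or the fold rule. Sequences were read from the RefSeq copy of GRCm38, with promoter windows placed by the gene starts of GENCODE vM21. The 4 genes, the gene lists and the tests were chosen with earlier results of these data known. Columns of motif scores and annotation in the deposited tables were used for position only. Scripts were tested on simulated data.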

Additional observations from a re-analysis of the deposited data

Results flagged for a closer look

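One value of 24 groups with at least 4 libraries stood apart from the rest of its group: Pol II at the Clec7a −42 kb region in basal replicate 1 of C57 BMDMs was 10.6 tags, where the next library held 2.03. Chance marks about 1 group in 20 in this way. Basal replicate 1 is the library that made the C57 groups overlap at this region. No region of the 4 genes had replicates that all went one way in one strain and all the other way in another.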

How the results depend on the processing

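Counts of called regions summed over the 5 strains moved as follows. H3K27ac (5 called) gave 3 under median-ratio scaling, 40 with the replicate block and 3 to 10 when each library was left out in turn. Pol II (10 called) gave 45 with the block and 5 to 13 leaving out libraries. H3K4me2 (0 called) gave 4 with the block and 0 to 15, and H3K4me3 (0 called) gave 2 with a pseudocount of 5, 5 with the filter on low tags, 3 under median-ratio scaling, 7 by edgeR, 18 with the block and 0 to 0 leaving out libraries. In the time course, H3K27ac at 1, 6 and 24 hours (6, 3 and 3 called) gave 12, 5 and 8 with the block and 0 to 12, 0 to 5 and 1 to 10 leaving out libraries. Pol II at 1 hour (0 called) gave 3 by edgeR, under median-ratio scaling and with the block, and 0 to 4; at 6 hours (3 called) 6 with the block and 0 to 6; at 24 hours (4 called) 8 under median-ratio scaling, 17 with the block and 0 to 6. EGR2 at 1 hour (0 called) gave 0 to 3, and the genotypes in H3K27ac (2 called) gave 1 under median-ratio scaling and 1 to 2. The labels state no pairing, so the blocked counts carry none from the design. Outside the Pol II comparisons named in the methods, libraries were not taken as paired. In H3K27ac at 24 hours the r was 0.470, 0.435, 0.492, 0.441 and 0.261 in C57, BALB, NOD, PWK and SPRET, each from 2 pairs. In C57 Pol II, which was taken as paired, it ran from 0.118 to 0.240. Whether the H3K27ac libraries are paired is thus not settled. The cause of the moves in the counts was not tested.

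By the fold rule, lower H3K27ac regions (13) became 25 at a threshold of 2, 3 under median-ratio scaling and 10 to 20 leaving out libraries, and higher ones (16) gave 15 to 17. Higher Pol II regions (28) became 18 with a pseudocount of 5 and 23 to 29, and lower ones (18) gave 12 to 22. In the better-scored part of each list (0.5 of its peaks), treated peaks of the 4 genes over the 5 strains were 99 for PU.1 (12 without a basal peak), 70 for C/EBPβ (25), 24 for EGR2 (12) and 50 for PPARγ (35). With lists of equal length, peaks without a basal peak were 14 for C/EBPβ, 21 for STAT6, 4 of 26 for EGR2 and 16 of 37 for PPARγ.

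Some uncalled H3K27ac differences changed sign (log2). Under median-ratio scaling the Clec7a start went to 0.28 in BALB and the Clec7a intron 1 region to 0.29 in C57 and 0.14 in BALB. By edgeR the Clec7a start in BALB went to 0.071 and Clec4n −2.1 kb in SPRET to 0.021. Leaving out 1 library at a time gave −0.66 to 0.56 at the Clec7a start in BALB, and at Clec7a intron 1 −0.16 to 0.053 in C57, −0.75 to 0.37 in BALB and −0.21 to 1.08 in NOD. In SPRET it gave −0.95 to 0.19 at the Clec4n start, −1.08 to 0.77 at Clec4n −2.1 kb and −1.05 to 0.50 at the Clec4e start, and in PWK −1.18 to 0.080 at Clec4d +3.9 kb. Of the repeats of a count under another setting, 369 stayed close to the main count and 75 moved. Of the repeats of a single region's H3K27ac difference, 218 kept their sign and their side of the threshold. Another 17 changed sign, and 16 kept their sign but changed their side of the threshold. edgeR was not run for the EGR2 time course and the genotype H3K27ac. With 2 libraries in most groups, differences below the spread of a pair could not be shown, and the low tags of distal Pol II rest on few reads.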
